A study of Mus musculus with 12 samples.

Results

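The genes described here make fatty acids, triglyceride and cholesterol. A list of 39 mouse genes of these pathways was matched, by transcript accession, to the probes of an Agilent whole mouse genome array. Of the 39 genes, 38 had a probe (64 probes in all), and Idi1 had none matched. The 38 genes are among 17178 with a named probe. All 38 were above background in every group and entered the tests over 24503 features.

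The study, on organ regeneration by stroma-dependent reprogramming of adult cells, hybridised 12 single-colour arrays in 4 groups of 3. Adult lung (arrays 1, 2 and 3) and adult mammary (arrays 1, 2 and 4) were cells of female donors aged 10 weeks, labelled as epithelial. Organs were minced, digested with trypsin and collagenase A (45 minutes for lung, 30 minutes for mammary gland) and cleared by 7 or 5 rounds of washing and centrifugation, with no cell sort stated. Reprogrammed lung (arrays 1, 3 and 4) and reprogrammed mammary (arrays 1, 2 and 3) were named by organ alone, and the protocol gives the same donor age of 10 weeks for them. It describes suspending donor cells in Matrigel for transplantation, but the labels state no strain, host or interval. They do not tell whether the organ of a reprogrammed sample is its donor or the tissue that grew. Nor do they tell whether arrays of a group came from separate animals, so every p-value measures the spread between arrays, which may be technical.

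Cytosolic acetyl-CoA is built into palmitate, which is then elongated and desaturated, and the resulting acyl chains are joined to glycerol. A separate branch condenses acetyl-CoA through mevalonate and squalene to cholesterol, and both branches answer to transcription factors that are held in the endoplasmic reticulum when sterols are plentiful. In the lung, alveolar type II cells use these lipids for surfactant, which is mostly saturated phosphatidylcholine. In the lactating mammary gland, luminal cells use them for the triglyceride of milk fat globules, and the fat pad around the ducts is itself rich in triglyceride.

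Several arrays stood apart before any comparison. Adult mammary array 4 and reprogrammed lung array 1 had 89.1% and 91.1% of probes above background and a narrow signal range, against 71.8% to 77.5% on the other 10 arrays. Reprogrammed lung array 1 was also rich in lymphocyte transcripts: its summed B and T cell markers stood at 88.6 times the array's 75th percentile signal, against 1.30 and 3.42 on the other arrays of its group. The same sum was 18.9 on adult mammary array 4, against 1.55 and 1.41 in its group, and 24.4 on reprogrammed mammary array 2, against 6.26 and 1.61. On adult lung array 3, the basal keratin Krt5 was at 3.14, against -3.43 and -2.88 on the other adult lung arrays. Levels throughout are log2 signals relative to the array's own 75th percentile, so 0 is that percentile, and they are compared for a gene between arrays, never between genes. The adult lung cells carried markers of alveolar type II epithelium, such as Sftpc at 7.20 and 7.34 on the 2 arrays with a value and Slc34a2 at 5.15, 5.30 and 5.10. Markers common to most epithelia were lower there than in the mammary cells. The sum over 8 pan-epithelial markers ran from 20.2 to 26.7 there, from 205 to 266 in adult mammary, from 32.0 to 191 in reprogrammed lung and from 215 to 244 in reprogrammed mammary. The sum over 8 endothelial markers ran from 149 to 168 in adult lung and from 19.3 to 53.1 in the other groups.

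The start regions of 4 of the genes are shown because their transcripts differed most between the adult organs (Acss2, Elovl1 and Thrsp) or, for Hmgcs1, because it is a textbook sterol-responsive gene whose groups did not separate here. The sequences are from RefSeq, build GRCm38.p6, and cover 250 bases before to 50 bases after the transcript start, 5′ to 3′ on the gene's strand. Acss2 lies at chr2:155517793-155518092 on the plus strand and Elovl1, of whose 2 listed starts 1 is shown, at chr4:118427843-118428142 on the plus strand. Thrsp lies at chr7:97417501-97417800 on the minus strand and Hmgcs1 at chr13:119690101-119690400 on the plus strand. Capitals mark, on either strand, the motifs TCACNCCA (the sterol regulatory element), CACGTG (the E-box), CCAAT (bound by NF-Y) and GGGCGG (the GC box), some of which overlap.
Acss2: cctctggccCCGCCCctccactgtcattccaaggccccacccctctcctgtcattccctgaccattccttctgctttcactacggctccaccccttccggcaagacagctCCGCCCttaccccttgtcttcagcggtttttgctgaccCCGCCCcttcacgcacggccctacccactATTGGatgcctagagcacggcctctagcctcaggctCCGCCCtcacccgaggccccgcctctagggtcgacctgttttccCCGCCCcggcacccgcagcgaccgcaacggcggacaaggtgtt
Elovl1: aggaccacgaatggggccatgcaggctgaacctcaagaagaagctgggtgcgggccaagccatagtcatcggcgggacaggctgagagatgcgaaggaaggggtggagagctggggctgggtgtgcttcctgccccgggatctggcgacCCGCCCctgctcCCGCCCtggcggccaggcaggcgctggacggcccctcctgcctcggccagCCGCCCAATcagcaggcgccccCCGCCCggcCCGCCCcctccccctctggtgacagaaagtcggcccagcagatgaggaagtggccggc
Thrsp: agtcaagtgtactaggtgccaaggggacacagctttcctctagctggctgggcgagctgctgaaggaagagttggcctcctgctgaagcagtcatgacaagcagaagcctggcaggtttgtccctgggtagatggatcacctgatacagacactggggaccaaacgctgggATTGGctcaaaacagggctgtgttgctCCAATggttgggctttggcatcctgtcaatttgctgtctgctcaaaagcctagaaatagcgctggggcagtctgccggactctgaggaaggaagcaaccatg
Hmgcs1: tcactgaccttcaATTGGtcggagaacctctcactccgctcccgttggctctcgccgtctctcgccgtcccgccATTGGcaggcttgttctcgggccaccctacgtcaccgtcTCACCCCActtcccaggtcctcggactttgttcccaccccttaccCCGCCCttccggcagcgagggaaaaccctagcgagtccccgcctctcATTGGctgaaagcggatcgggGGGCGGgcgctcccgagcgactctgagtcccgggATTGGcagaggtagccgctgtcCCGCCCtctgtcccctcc

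In these windows Acss2 and Elovl1 each held 5 GC boxes and 1 CCAAT box, Thrsp held 2 CCAAT boxes and none of the other motifs, and Hmgcs1 held 1 sterol regulatory element, 4 CCAAT boxes and 3 GC boxes. Of the 39 listed genes, 31 had an entry, with 40 windows. Scd1, Scd2, Fads1, Dgat1, Dgat2, Fdps, Fdft1 and Sqle had no entry. The CCAAT box was in 65% of these windows, against 37.4% of all 32851 windows, and the GC box in 67.5% against 35.7%. The E-box was in 17.5% against 7.15%. The sterol regulatory element was in 10% against 4.36%, in Gpam, Hmgcs1, Msmo1 and Srebf2. These shares describe letters only.

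The first question was how lipid synthesis transcripts of lung compare with those of mammary gland. Lung lipid goes to surfactant, and mammary lipid goes to milk fat in lactation. The sample details used here give no lactation state. Adult lung was higher than adult mammary for Acss2, the mevalonate kinase Mvk and some genes of chain elongation, desaturation and glycerolipid assembly. It was lower for Thrsp and for a pair of late cholesterol enzymes. The remaining genes of elongation, desaturation and assembly (Elovl6, Fads1, Fads2, Dgat1 and Dgat2) leaned lower without passing the threshold. With limma and a Benjamini-Hochberg adjusted p under 0.05 over all features, 9 of 38 genes were higher in adult lung (12.5% of all features) and 3 were lower (15.9%). Together 12 of 38 were called, close to the 28.5% of all features called in either direction. The median difference of the 38 genes was 0.05 on the log2 scale, against 0.00 over all features. By unadjusted p, 17 of 38 passed, against 39.8% of all features. Among the 19 genes of fatty acid and triglyceride synthesis 8 were higher and 1 was lower, with a median difference of 0.43. Among the 15 genes of the cholesterol branch 1 was higher and 2 were lower, with a median of 0.08. For all 12 called genes, the 3 adult lung arrays and the 3 adult mammary arrays did not overlap. The share of all called features without overlap was not counted, so this is not a trait of these genes. In bulk cells such as these, fewer cells of a type and less RNA per cell cannot be told apart.

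**Figure D1:**
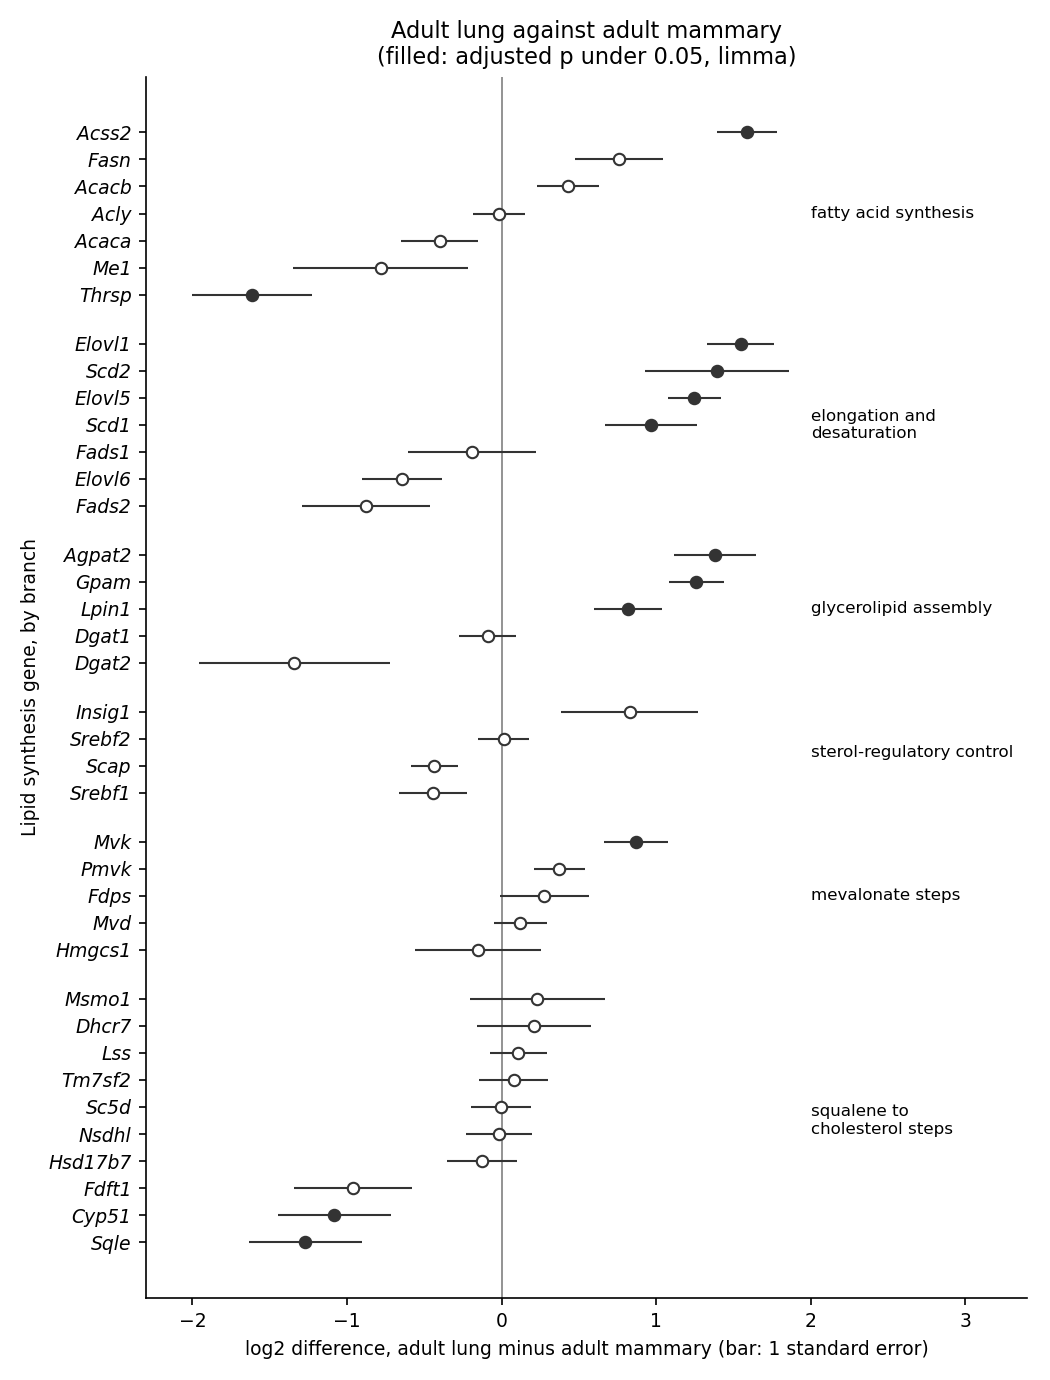
Log2 difference of adult lung minus adult mammary (horizontal axis, with its standard error, 3 arrays per group) for the 38 genes, by branch of the pathway. Filled points passed an adjusted p of 0.05: 9 lie right of 0, most of them in elongation, desaturation and glycerolipid assembly, and 3 lie left of it.

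In fatty acid synthesis 1 of 7 genes was higher and 1 was lower in adult lung. Acss2, the cytosolic enzyme that turns acetate into acetyl-CoA, stood at -2.03, -1.78 and -1.99 on adult lung arrays 1, 2 and 3, and at -3.82, -3.51 and -3.23 on adult mammary arrays 1, 2 and 4. Every adult lung array was above every adult mammary array, by 1.59 ± 0.19 on average (SE, n = 3 and 3, log2; 3.01-fold; limma adjusted p = 0.000294). Thrsp (Spot 14), a nuclear protein that promotes lipogenesis in liver, fat and lactating mammary gland, went the other way. Its levels were -1.91, -1.46 and -1.73 in adult lung and -0.71, 0.01 and 0.44 in adult mammary. The groups did not overlap, and adult lung was lower by a log2 difference of -1.61 ± 0.39 (SE, n = 3 and 3; 3.06-fold; limma adjusted p = 0.013). Without adult lung array 1, Thrsp missed the threshold (-1.51, limma adjusted p = 0.0511).

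The core of the branch did not pass. Fasn, which builds palmitate, was at 1.77, 2.22 and 2.11 in adult lung and at 0.86, 1.77 and 1.19 in adult mammary. The groups touched at 1.77 (difference 0.76 ± 0.28, SE, n = 3 and 3; limma adjusted p = 0.0704). It passed without adult mammary array 2 (1.00, limma adjusted p = 0.034), reprogrammed lung array 1 (limma adjusted p = 0.0411) or reprogrammed lung array 3 (limma adjusted p = 0.0428). A second, dimmer Fasn probe gave a smaller difference of 0.32. Acaca, the carboxylase that makes the malonyl-CoA used by Fasn, was at 0.71, 1.04 and 0.82 in adult lung and at 0.92, 1.45 and 1.40 in adult mammary, which overlapped (difference -0.40 ± 0.25, SE, n = 3 and 3; limma adjusted p = 0.255). The citrate-cleaving enzyme Acly differed by -0.02, the mitochondrial carboxylase Acacb by 0.43 and the malic enzyme Me1, a source of NADPH, by -0.78, none past the threshold.

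Of the 7 genes of elongation and desaturation, 4 were higher and none was lower in adult lung. Elovl1, which extends saturated and monounsaturated very long chains, was at 2.61, 2.80 and 2.72 in adult lung and at 1.33, 1.05 and 1.11 in adult mammary. The gap was wide beside the spread within either group (1.55 ± 0.22, SE, n = 3 and 3; 2.92-fold; limma adjusted p = 0.000575). Elovl5, an elongase of polyunsaturated chains, was at 4.13, 4.05 and 4.31 against 3.10, 3.00 and 2.64. Here too every adult lung array was the higher (1.25 ± 0.17, SE, n = 3 and 3; 2.37-fold; limma adjusted p = 0.000555). Scd2, a stearoyl-CoA desaturase, was at 1.55, 1.95 and 1.72 against 0.12, 0.49 and 0.44. These groups were also apart (1.39 ± 0.47, SE, n = 3 and 3; 2.63-fold), but the spread of Scd2 in reprogrammed lung entered its error, and it passed only narrowly (limma adjusted p = 0.0474). The related desaturase Scd1 was higher by 0.97 (limma adjusted p = 0.035).

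Both desaturase calls were lost when any of several single arrays was left out. Scd2 missed the threshold without any of 10 of the arrays (all but reprogrammed lung arrays 1 and 4), with differences of 1.28 to 1.49 and adjusted p of up to 0.134. Scd1 missed it without any adult lung array, adult mammary array 1 or 4, or reprogrammed mammary array 3, with differences of 0.75 to 1.07 and adjusted p of up to 0.133. The other 3 genes of the branch were on the lower side without passing: Elovl6, which takes palmitate to stearate, differed by -0.64, and the polyunsaturated desaturases Fads2 and Fads1 by -0.88 and -0.19. Elovl6 passed without adult lung array 3 (-0.95, limma adjusted p = 0.0113), the array that stood apart for Krt5. Fads2 passed without reprogrammed lung array 3 (limma adjusted p = 0.0102).

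In glycerolipid assembly 3 of 5 genes were higher in adult lung and none was lower. Agpat2, which adds the second acyl chain to make phosphatidic acid, was at 0.72, 0.92 and 0.58 in adult lung and at -0.55, -0.99 and -0.38 in adult mammary. The groups did not overlap (1.38 ± 0.27, SE, n = 3 and 3; 2.61-fold; limma adjusted p = 0.00345). Gpam, the mitochondrial acyltransferase that adds the first chain, was at -1.02, -1.08 and -0.77 against -2.36, -2.27 and -2.02. It separated the groups as cleanly (1.26 ± 0.18, SE, n = 3 and 3; 2.39-fold; limma adjusted p = 0.000653). Lpin1, the phosphatase that makes diacylglycerol, was higher by 0.82 (limma adjusted p = 0.0182), and missed the threshold without adult lung array 1 (0.74, limma adjusted p = 0.0712) or adult mammary array 4 (0.73, limma adjusted p = 0.0616).

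The last step, to triglyceride, did not follow these 3 genes. Dgat2 was at -0.97, -0.47 and 0.94 in adult lung and at 1.80, 0.48 and 1.25 in adult mammary. Adult lung array 3 lay above adult mammary array 2, and the difference was -1.34 ± 0.62 (SE, n = 3 and 3; limma adjusted p = 0.132). The other acyltransferase of this step, Dgat1, differed by -0.09.

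**Figure D2:**
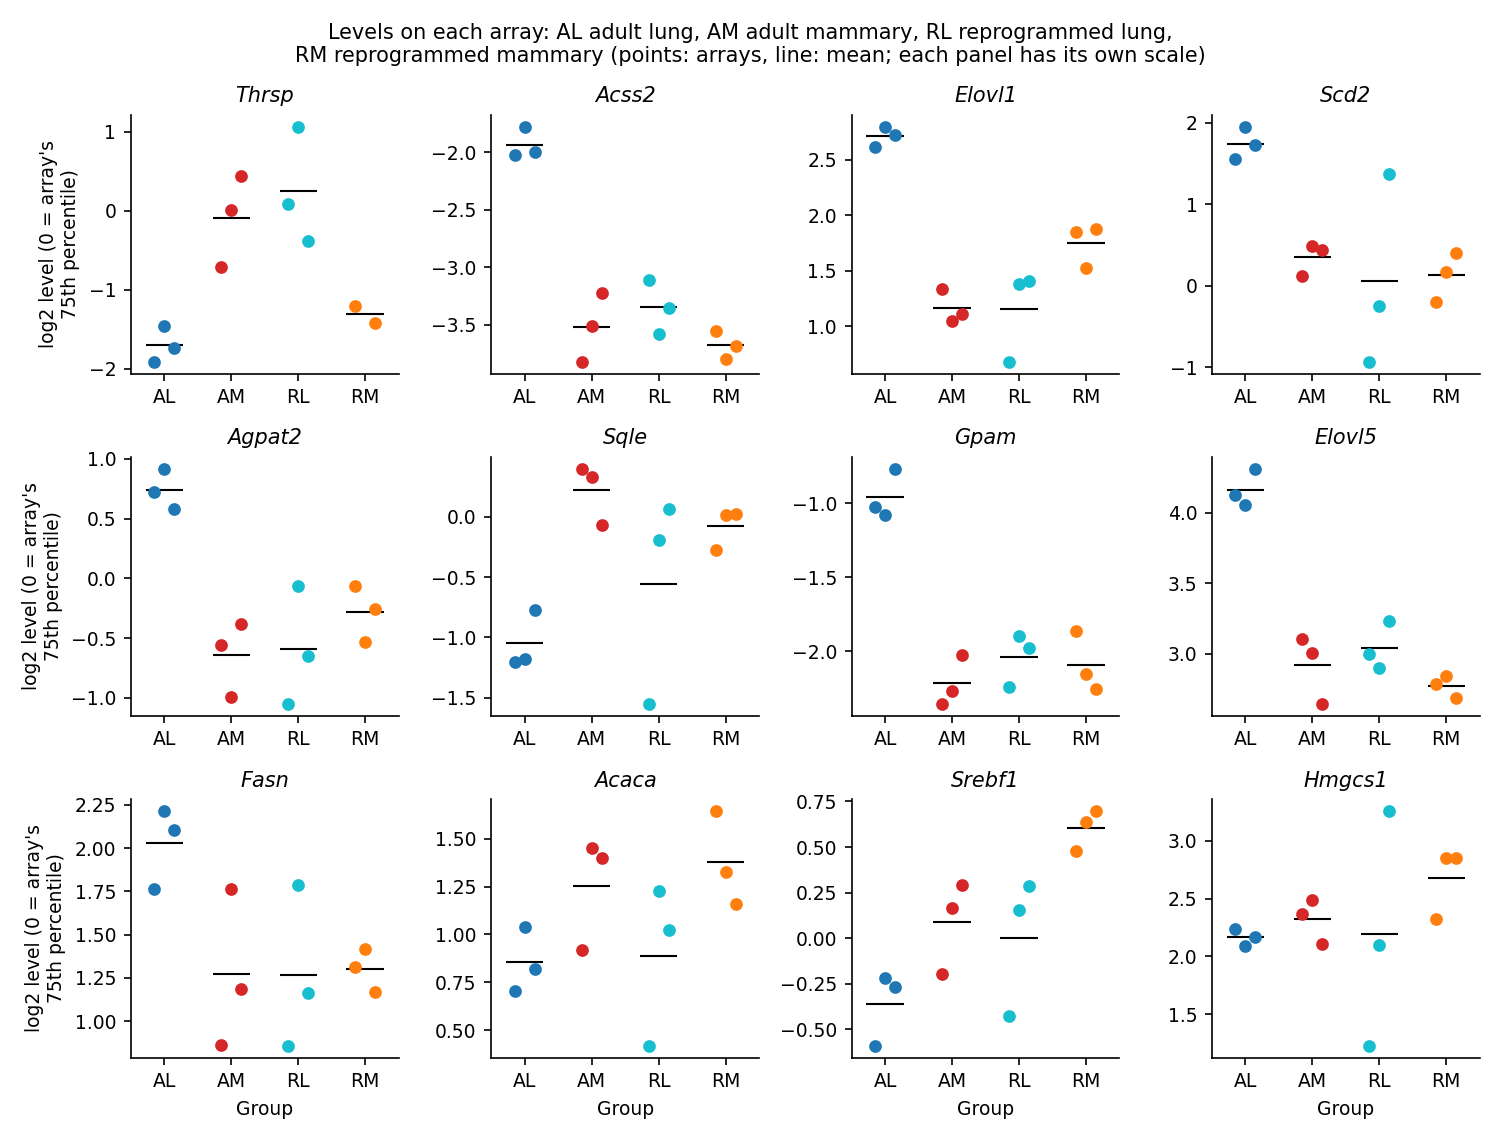
Log2 level relative to the array's 75th percentile (vertical axis) on each array of the 4 groups, with the group mean as a line, for 12 genes of the pathways. Acss2, Elovl1, Elovl5, Agpat2, Gpam and Scd2 are highest on the 3 adult lung arrays as a group, Thrsp and Sqle lowest, and reprogrammed lung spreads widely for Scd2, Sqle and Hmgcs1.

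None of the 4 control genes passed. Srebf1, the transcription factor that drives fatty acid synthesis genes, was at -0.59, -0.22 and -0.27 in adult lung and at -0.20, 0.16 and 0.29 in adult mammary. The groups just failed to overlap (difference -0.45 ± 0.22, SE, n = 3 and 3; limma adjusted p = 0.162). Srebf2, its counterpart for cholesterol genes, was at 1.82, 1.49 and 1.46 against 1.57, 1.65 and 1.51, with adult mammary inside the adult lung range (difference 0.01 ± 0.17, SE, n = 3 and 3; limma adjusted p = 0.964). Insig1, which retains both factors in the endoplasmic reticulum and is itself their target, was at 0.79, 0.35 and 0.58 against 0.17, -0.09 and -0.83. Adult lung was the higher on every array without passing (0.83 ± 0.44, SE, n = 3 and 3; limma adjusted p = 0.192), and it passed without reprogrammed lung array 4 (limma adjusted p = 0.0464). Scap, their escort protein, differed by -0.44 (limma adjusted p = 0.0532), and passed without reprogrammed lung array 1 (limma adjusted p = 0.0275) or array 4 (limma adjusted p = 0.0453).

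Of the 5 mevalonate genes measured, 1 was higher in adult lung. Mevalonate kinase, Mvk, was at -0.51, -0.50 and -0.51 in adult lung and at -1.57, -1.62 and -0.93 in adult mammary, a difference of 0.87 (limma adjusted p = 0.0101). Hmgcs1, which makes HMG-CoA, was at 2.23, 2.09 and 2.17 against 2.37, 2.49 and 2.11, which overlapped (difference -0.15 ± 0.41, SE, n = 3 and 3; limma adjusted p = 0.812). A second Hmgcs1 probe gave the opposite sign (0.13). The later enzymes Pmvk, Fdps and Mvd differed by 0.37, 0.28 and 0.12, none past the threshold.

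Of the 10 genes from squalene to cholesterol, 2 were lower in adult lung and none was higher. Squalene epoxidase, Sqle, was at -1.20, -1.18 and -0.77 in adult lung and at 0.40, 0.33 and -0.07 in adult mammary. The groups did not overlap (-1.27 ± 0.36, SE, n = 3 and 3; 2.41-fold; limma adjusted p = 0.0245), but Sqle missed the threshold without adult lung array 1 or 2 or adult mammary array 1 or 2 (-1.18 to -1.21, limma adjusted p = 0.0728 to 0.0815). Cyp51, the lanosterol demethylase, was lower by a log2 difference of -1.08, at the edge of the threshold (limma adjusted p = 0.0499). Leaving out any array but reprogrammed lung array 1 or 4 ended the Cyp51 call, with differences of -0.97 to -1.27. Fdft1, squalene synthase, was at 2.48, 2.44 and 2.77 against 3.65, 3.62 and 3.30, apart but not called (-0.96 ± 0.38, SE, n = 3 and 3; limma adjusted p = 0.0848). It passed without reprogrammed lung array 1, where it is low (-0.96, limma adjusted p = 0.00154). The other 7 genes of this stretch, Lss, Tm7sf2, Msmo1, Nsdhl, Hsd17b7, Sc5d and Dhcr7, differed by -0.13 to 0.23.

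Of the 12 called genes, 5 (Acss2, Elovl1, Elovl5, Gpam and Agpat2) were called under each of the 25 alternative settings, and the other 7 were not. The alternative background correction (normexp) called 7 genes higher and 0 lower, with Thrsp at -1.07 (limma adjusted p = 0.0708), Sqle at -0.91 (limma adjusted p = 0.057) and Cyp51 at -0.995 (limma adjusted p = 0.0569). It also moved the median of all features to 0.34 and their calls from 3071 higher and 3908 lower to 2895 higher and 1858 lower. Cell-type markers moved with the comparison. Alveolar type II markers were higher in adult lung for 9 of 10, milk-producing luminal markers lower for 6 of 8, endothelial markers higher for 7 of 8 and pan-epithelial markers lower for 7 of 8. Basal and myoepithelial markers were lower for 6 of 7, with a sum over 6 of them of 8.46 to 24.4 in adult lung and 53.8 to 72.6 in adult mammary. Of 6 fibroblast markers 1 was higher and 2 were lower (sum over 5, 79.2 to 101 against 129 to 197), and of 6 tested macrophage markers 2 were higher and 1 was lower (sum over 7, 13.7 to 17.3 against 7.13 to 9.58). The alveolar type II sum over 9 markers (without Sftpc, which lacked a value on 1 array) ran from 111 to 149 in adult lung and from 4.48 to 9.47 in adult mammary, and the luminal sum from 0.378 to 0.482 and from 42.2 to 139. Of the 9 adipocyte markers tested 4 were lower in adult lung and 1 was higher. Adipoq, the adipocyte hormone, was at least 8.24-fold lower, Plin1 was not called, and Lep was above background on 1 of the 3 adult mammary arrays and on none of adult lung. Fabp4 was at 1.52, 1.40 and 2.18 in adult lung and at 7.04, 6.27 and 5.99 in adult mammary. The adipocyte sum without Fabp4, which lacked a value on 1 array, ran from 9.67 to 12.3 in adult lung and from 5.87 to 9.94 in adult mammary. That sum is mostly Lipe, the hormone-sensitive lipase, at 3.48, 3.13 and 3.03 in adult lung and at 2.84, 1.93 and 2.34 in adult mammary, and it runs against Fabp4, Adipoq, Cfd and Car3, which were lower in adult lung. The part of these cell types in the lipid differences was not tested.

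Genes that pass the lipids on differed as well, and their counts stand against the 12.5% of all features called higher and 15.9% called lower in adult lung. Of 10 tested genes of surfactant lipid supply, 4 were higher and 2 lower in adult lung, with a median difference of 0.51. The lamellar body transporter Abca3, which is also an alveolar type II marker, was higher by 1.48. Prdx6, which has phospholipase A2 activity in surfactant recycling, was higher by 1.36. Pcyt1a, the rate-limiting step of phosphatidylcholine synthesis from choline, was higher by 0.70. The alternative route through Pemt, which methylates phosphatidylethanolamine, was lower by a difference of -1.30, and the choline kinase Chka by one of -1.05. The list thus split between both directions.

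Of 13 tested genes of milk fat supply, 3 were higher and 3 lower in adult lung, with a median of 0.08. Butyrophilin, Btn1a1, a coat protein of the milk fat globule, was at least 46.8-fold lower in adult lung, where it was not well above background on any array. The globule protein Mfge8 was lower by a difference of -1.24 and the lipid droplet coat Plin2 by one of -1.06. The fatty acid carriers Fabp3 and Cd36, which heart, muscle and endothelium also express, were higher in adult lung by 2.29 and 2.02.

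**Figure D3:**
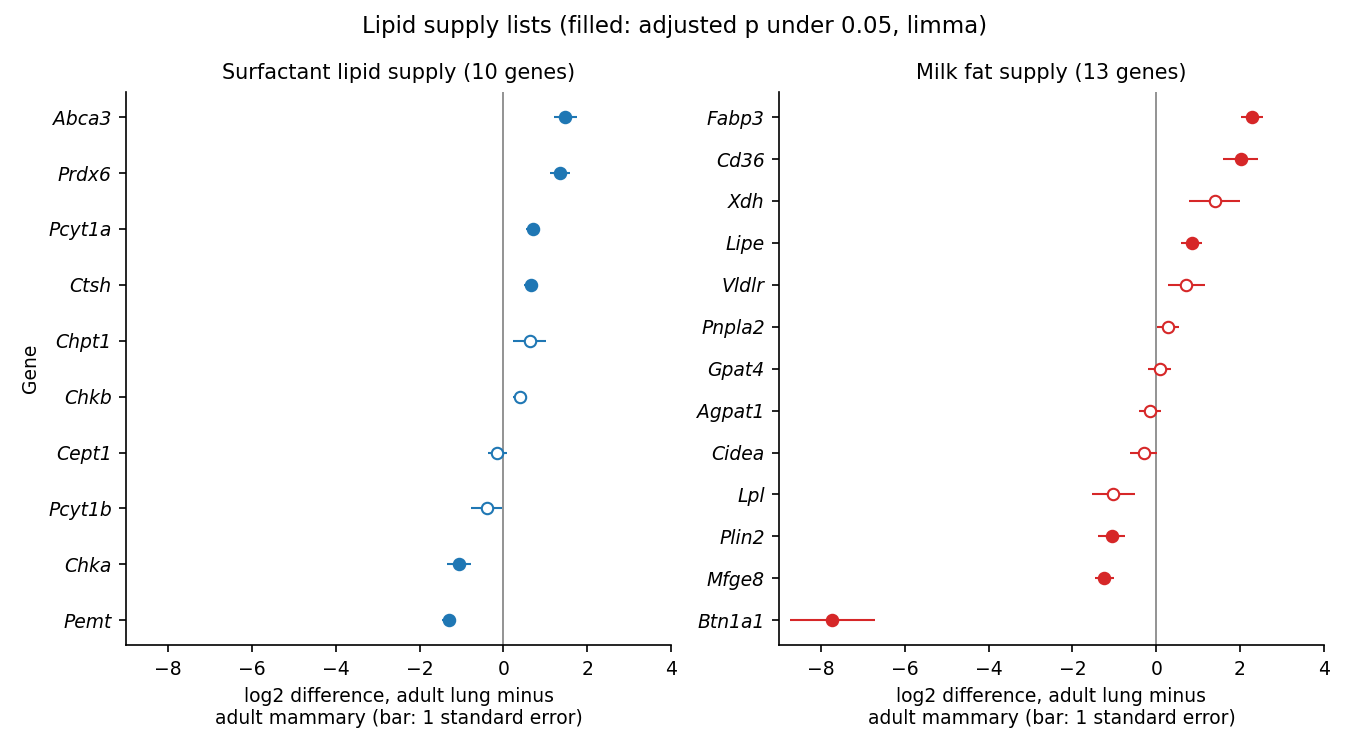
Log2 difference of adult lung minus adult mammary (horizontal axis, with its standard error, 3 arrays per group) for 10 genes of surfactant lipid supply and 13 of milk fat supply. Filled points passed an adjusted p of 0.05, and both lists hold genes on both sides of 0; Btn1a1 is drawn at its fitted value of -7.73, although adult lung was not above background for it.

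The counts for the other lipid lists stand against the same 12.5% of all features called higher and 15.9% called lower. Of 13 tested genes of fatty acid uptake and activation, 3 were higher and 4 lower in adult lung, led by Fabp4 (-4.74), the adipocyte and endothelial carrier, and by Gpihbp1 (2.45), which holds lipoprotein lipase on capillaries. Slc27a1 (-1.85), Acsl3 (-1.71) and Dbi (-1.13), which import, activate and bind fatty acids, were lower. Of 10 genes of citrate and NADPH supply only Pdha1 (-1.15), a pyruvate dehydrogenase subunit, was called. Of 17 other genes of cholesterol synthesis and sterol control, 1 was higher and 2 were lower. The oxysterol receptor Nr1h3 (1.56) was higher, and Mylip (-1.27), a ubiquitin ligase that lowers lipoprotein uptake, and Acat2 (-0.69), which makes acetoacetyl-CoA, were lower. Of 16 genes of fatty acid oxidation, 1 was higher (Ppara, 1.51) and 3 were lower (Pdk4, -1.62; Etfdh, -1.28; Hadhb, -0.76).

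The second question was how reprogrammed lung differed from adult lung. A rise or fall here means a difference between these groups, whose link the labels do not state. Reprogrammed lung was lower than adult lung for 8 of the 38 genes (9.31% of all features) and higher for 2 (14.1%). Together 10 of 38 passed, against 23.4% of all features. The median difference of the 38 genes was -0.21, against 0.10 over all features. By unadjusted p, 13 of 38 passed, against 34.9%. All 10 were genes of fatty acid and triglyceride synthesis, where 10 of 19 passed. In the cholesterol branch 0 of 15 passed with limma, with 1 at an unadjusted p under 0.05, and among the control genes 0 of 4, with 0 at that unadjusted p. This comparison shares its adult lung arrays with the one between the adult organs, so their differences are not independent.

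Thrsp rose most. It was at 0.09, 1.07 and -0.38 on reprogrammed lung arrays 1, 3 and 4, all above the adult lung arrays (-1.91, -1.46 and -1.73). The rise was 1.96 ± 0.39 (SE, n = 3 and 3; 3.89-fold; limma adjusted p = 0.00599). Elovl6 rose by 0.98 (limma adjusted p = 0.0199), and missed the threshold without adult lung array 1 (0.77, limma adjusted p = 0.0847), adult lung array 2 (0.88, limma adjusted p = 0.0786) or reprogrammed lung array 3 (0.91, limma adjusted p = 0.0596).

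The genes that fell were Acss2 and some genes of chain modification and assembly. Elovl1 was at 0.68, 1.38 and 1.41 in reprogrammed lung, below every adult lung array (-1.55 ± 0.22, SE, n = 3 and 3; 2.93-fold; limma adjusted p = 0.000659). Acss2 was at -3.11, -3.58 and -3.35, likewise below them all (-1.41 ± 0.19, SE, n = 3 and 3; 2.67-fold; limma adjusted p = 0.000636). Scd2 was at -0.93, -0.25 and 1.37, a spread of over 2 log2 units with array 4 just under the lowest adult lung array. Its mean fell by 1.68 ± 0.47 (SE, n = 3 and 3; limma adjusted p = 0.025). The Scd2 call was lost without any adult lung array (-1.58 to -1.78), reprogrammed lung array 1 (-1.18) or reprogrammed lung array 3 (-1.52).

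The other falls were of Agpat2 (-1.33), Scd1 (-1.14), Elovl5 (-1.12), Gpam (-1.08) and Lpin1 (-0.70). Agpat2 was at -1.05, -0.07 and -0.65 in reprogrammed lung, Gpam at -2.24, -1.90 and -1.98 and Elovl5 at 3.00, 2.90 and 3.23, all below their adult lung ranges. Acss2, Elovl1, Elovl5, Gpam, Agpat2 and Thrsp were called under each of the 25 alternative settings. Scd1 was lost without adult lung array 2 (-0.95, limma adjusted p = 0.0822). Lpin1 was lost without any array but reprogrammed lung array 3, with differences of -0.49 to -0.74.

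**Figure D4:**
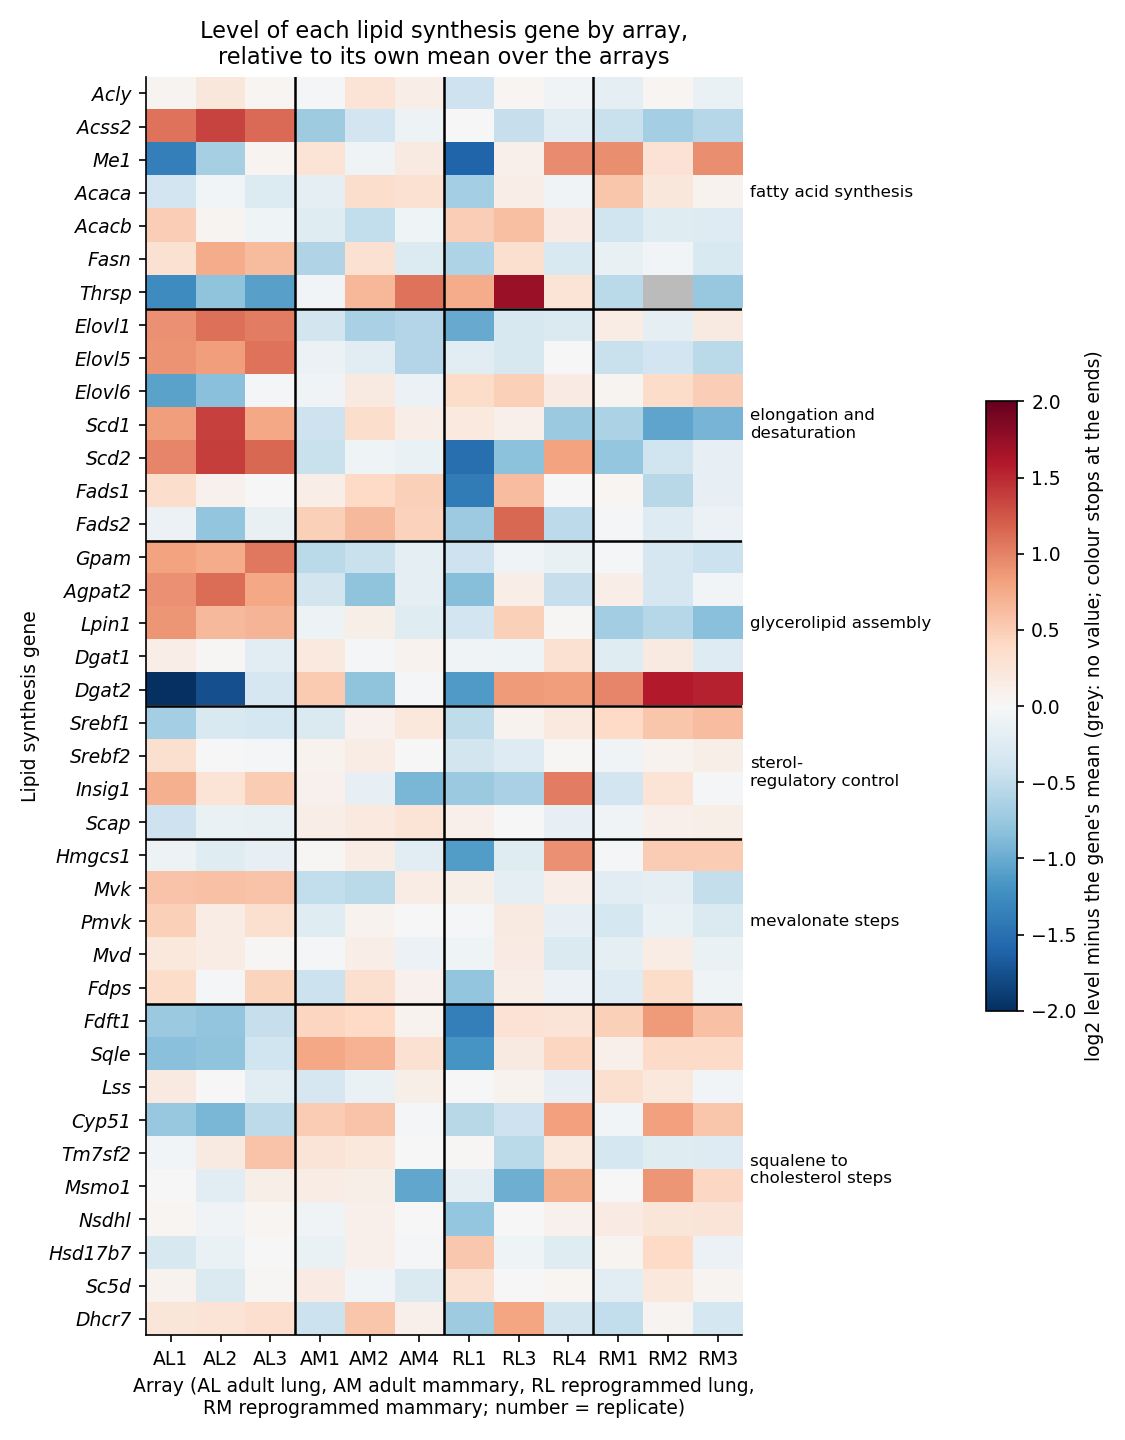
Log2 level of the 38 genes on each of the 12 arrays, as the deviation from the gene's mean over the arrays, with rows grouped by branch of the pathway (colour stops at 2 in either direction, grey marks the array without a value for Thrsp). The 3 adult lung columns are high for Acss2, Elovl1, Elovl5, Agpat2 and Gpam and low for Thrsp, and reprogrammed lung array 1 differs from arrays 3 and 4 for many genes.

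Reprogrammed lung array 1 set several of the values that did not pass. It was the lowest of its group for 22 of the 38 genes, a count not taken over all features, so it may not be particular to these genes. It is also the array with a narrow signal range, many lymphocyte transcripts and an Epcam level of 1.58, against 4.65 and 4.33. Fdft1 was at 1.85 on it and at 3.52 and 3.48 on arrays 3 and 4, and without it Fdft1 rose by 0.94 (limma adjusted p = 0.00434). Without it Sqle (0.98, limma adjusted p = 0.00684), Dgat2 (2.29, limma adjusted p = 0.0111) and Srebf1 (0.58, limma adjusted p = 0.0452) were also called as higher than in adult lung. Dgat2 was called without adult lung array 3 as well (2.18, limma adjusted p = 0.0356). With all arrays Dgat2 differed by 1.63 ± 0.62 (SE, n = 3 and 3; limma adjusted p = 0.0842), and was at 0.15, 2.13 and 2.11 in reprogrammed lung. The part of the lymphocyte signal in these values was not tested.

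The genes reported whatever their result did not pass here. Fasn was at 0.86, 1.79 and 1.16 in reprogrammed lung and differed by -0.76 ± 0.28 (SE, n = 3 and 3; limma adjusted p = 0.0792), and was called without reprogrammed lung array 3 (-1.02, limma adjusted p = 0.0265). Acaca was at 0.42, 1.22 and 1.02 and differed by 0.03 (limma adjusted p = 0.942). Srebf1 was at -0.43, 0.15 and 0.28 and differed by 0.36 (limma adjusted p = 0.283). Both overlapped adult lung. Srebf2 was at 1.13, 1.24 and 1.51 and differed by -0.30 (limma adjusted p = 0.239). Hmgcs1 was at 1.22, 2.10 and 3.26, a wide range around the adult lung values, and differed by 0.03 (limma adjusted p = 0.973). Insig1 was at -0.67, -0.57 and 1.1 and differed by -0.62 (limma adjusted p = 0.364). Other probes gave -0.16 for Fasn, -0.53 for Hmgcs1, -0.34 for Srebf2, -0.38 for Insig1 and 0.29, 0.03 and -0.42 for Acaca. Reprogrammed lung array 4 was the highest of its group for Insig1, Hmgcs1, Scd2 and Cyp51 (0.26, 0.40 and 1.64), and without it Insig1 was called as lower (-1.19, limma adjusted p = 0.0199). That array was the highest for 15 and the lowest for 9 of the 38 genes. In the cholesterol branch it was the highest for 7 and the lowest for 4 of 15.

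Marker sums moved with this comparison too. All 10 alveolar type II markers and 7 of 8 endothelial markers were lower in reprogrammed lung, and 6 of 8 luminal, 5 of 8 pan-epithelial and 5 of 9 tested adipocyte markers were higher, with 1 adipocyte marker lower. The alveolar type II sum fell to between 4.69 and 9.14 and the endothelial sum to between 40.4 and 53.1, while the luminal sum ran from 18.9 to 391. Of the adipocyte markers Adipoq was at least 8.56-fold higher, Car3 at least 8.81-fold higher and Cfd higher by 3.10, and the sum without Fabp4, mostly Lipe, ran from 7.74 to 9.09. Basal and myoepithelial markers were higher for 4 of 7, fibroblast markers higher for 2 and lower for 1 of 6, and macrophage markers lower for 2 of 6. Their part in the lipid differences was not tested.

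The counts for the other lipid lists stand against the 14.1% of all features called higher and 9.31% called lower here. The supply genes gave 1 higher and 3 lower of 10 for surfactant and 3 higher and 3 lower of 13 for milk fat. Pemt rose by 1.01, while Prdx6 (-1.91, 2 reprogrammed arrays with a value), Abca3 (-1.60) and Pcyt1a (-0.72) fell. Btn1a1 was at least 25.3-fold higher in reprogrammed lung, Mfge8 was higher by 2.06 (2 reprogrammed arrays with a value) and Plin2 by 1.23, while Cd36 (-1.77), Fabp3 (-1.45) and Lipe (-0.90) fell. In uptake and activation 3 of 13 were higher and 3 lower, led by Fabp4 (5.11, 2 reprogrammed arrays with a value). In citrate and NADPH supply only Idh1 (1.00) passed. Among the other cholesterol genes Mylip (1.72) and Abca1 (1.00) were higher and Nr1h3 (-1.18) lower. In oxidation Pdk4 (2.00) and Cpt2 (0.54) were higher and Ppara (-1.26) lower.

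Between reprogrammed and adult mammary no gene passed. With limma 0 of 38 genes passed (0.00408% of all features), and 6 of 38 had an unadjusted p under 0.05, against 10% of all features. These 6 were Dgat2 (1.47), Thrsp (-1.22, 2 reprogrammed arrays with a value), Scd1 (-0.90), Lpin1 (-0.62), Elovl1 (0.58) and Srebf1 (0.52). Dgat2 was at 2.25, 2.87 and 2.82 on reprogrammed mammary arrays 1, 2 and 3, above the adult mammary values of 1.80, 0.48 and 1.25. Srebf1 was at 0.48, 0.64 and 0.70, also above adult mammary. Fasn (1.31, 1.42 and 1.17), Acaca (1.65, 1.33 and 1.16), Srebf2 (1.42, 1.57 and 1.61) and Insig1 (-0.30, 0.36 and 0.04) overlapped the adult mammary values.

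Nor did any pass between reprogrammed lung and adult mammary. With limma 0 of 38 genes passed (0.0286% of all features), and 1 of 38, Acacb (0.70 ± 0.20, SE, n = 3 and 3; limma adjusted p = 0.256), had an unadjusted p under 0.05, against 11.8% of all features. The differences ran from -0.78 to 0.70. Elovl1 differed by -0.01, Fasn by 0.00, Acss2 by 0.17 and Thrsp by 0.35, so these reprogrammed lung means lay near adult mammary. With 3 arrays a group and the widest spread of any group (median SD over the 38 genes 0.43 in reprogrammed lung, 0.18 to 0.20 in the others), a missed threshold does not show that the groups were alike.

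Between the reprogrammed groups 0 of 38 genes passed with limma (0.00816% of all features), and 7 of 38 had an unadjusted p under 0.05, against 9.59%. Reprogrammed lung was the higher for Thrsp (1.57, 2 reprogrammed mammary arrays with a value), Lpin1 (0.74), Scd1 (0.73) and Acacb (0.72), and the lower for Fdft1 (-0.92), Srebf1 (-0.60) and Elovl1 (-0.59). Other probes gave -0.11 for Fdft1, 0.90 and 0.71 for Lpin1 and 0.47 for Acacb. Thrsp was at -1.20 and -1.42 in reprogrammed mammary, below all 3 reprogrammed lung arrays. Sqle, at -0.27, 0.02 and 0.02 in reprogrammed mammary, and Hmgcs1, at 2.32, 2.85 and 2.85, lay within the reprogrammed lung range. None of the other lipid lists had a gene called in these 3 comparisons.

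The difference of reprogrammed from adult cells varied with the organ name for 6 of the 38 genes. Change here means a difference between groups that share an organ name, whose link the labels do not state. Taking the lung change (reprogrammed minus adult lung) less the mammary change, limma called 1 gene as higher (7.41% of all features) and 5 as lower (5.39%), against 12.8% of all features in either direction. The same 6 had an unadjusted p under 0.05, against 27.3% of all features. Thrsp had the largest value: its lung change of 1.96 and mammary change of -1.22 differed by 3.18 ± 0.58 (SE; limma adjusted p = 0.00879), with n = 3 arrays per group except 2 in reprogrammed mammary. Elovl1 fell in lung by 1.55 and was 0.58 higher in mammary, a difference of -2.14 ± 0.30 (SE, n = 3 per group; limma adjusted p = 0.00217). It was at 1.85, 1.52 and 1.87 on reprogrammed mammary arrays 1, 2 and 3, all above adult mammary. Agpat2 (-1.69 ± 0.38), Acss2 (-1.25 ± 0.28), Gpam (-1.21 ± 0.25) and Elovl5 (-0.98 ± 0.24) were the other genes called. On reprogrammed mammary arrays 1, 2 and 3, Agpat2 was at -0.07, -0.54 and -0.25, Acss2 at -3.56, -3.80 and -3.68 and Gpam at -1.87, -2.15 and -2.26. Each of these overlapped adult mammary. The value rests on the same adult arrays as the comparisons above.

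Of these 6 genes only Elovl1 was called under each of the 24 alternative settings run. Elovl5 was lost without any adult lung array, adult mammary array 4, reprogrammed lung array 3 or any reprogrammed mammary array (-0.84 to -1.03, limma adjusted p = 0.0505 to 0.0708). Without reprogrammed lung array 4, Scd2 (-2.11, limma adjusted p = 0.00529) and Insig1 (-1.47, limma adjusted p = 0.0405) were called as well, and without reprogrammed lung array 1, Sqle (1.28, limma adjusted p = 0.012). The slides as a block left 2 genes called, and the replicate number as a block 1.

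**Figure D5:**
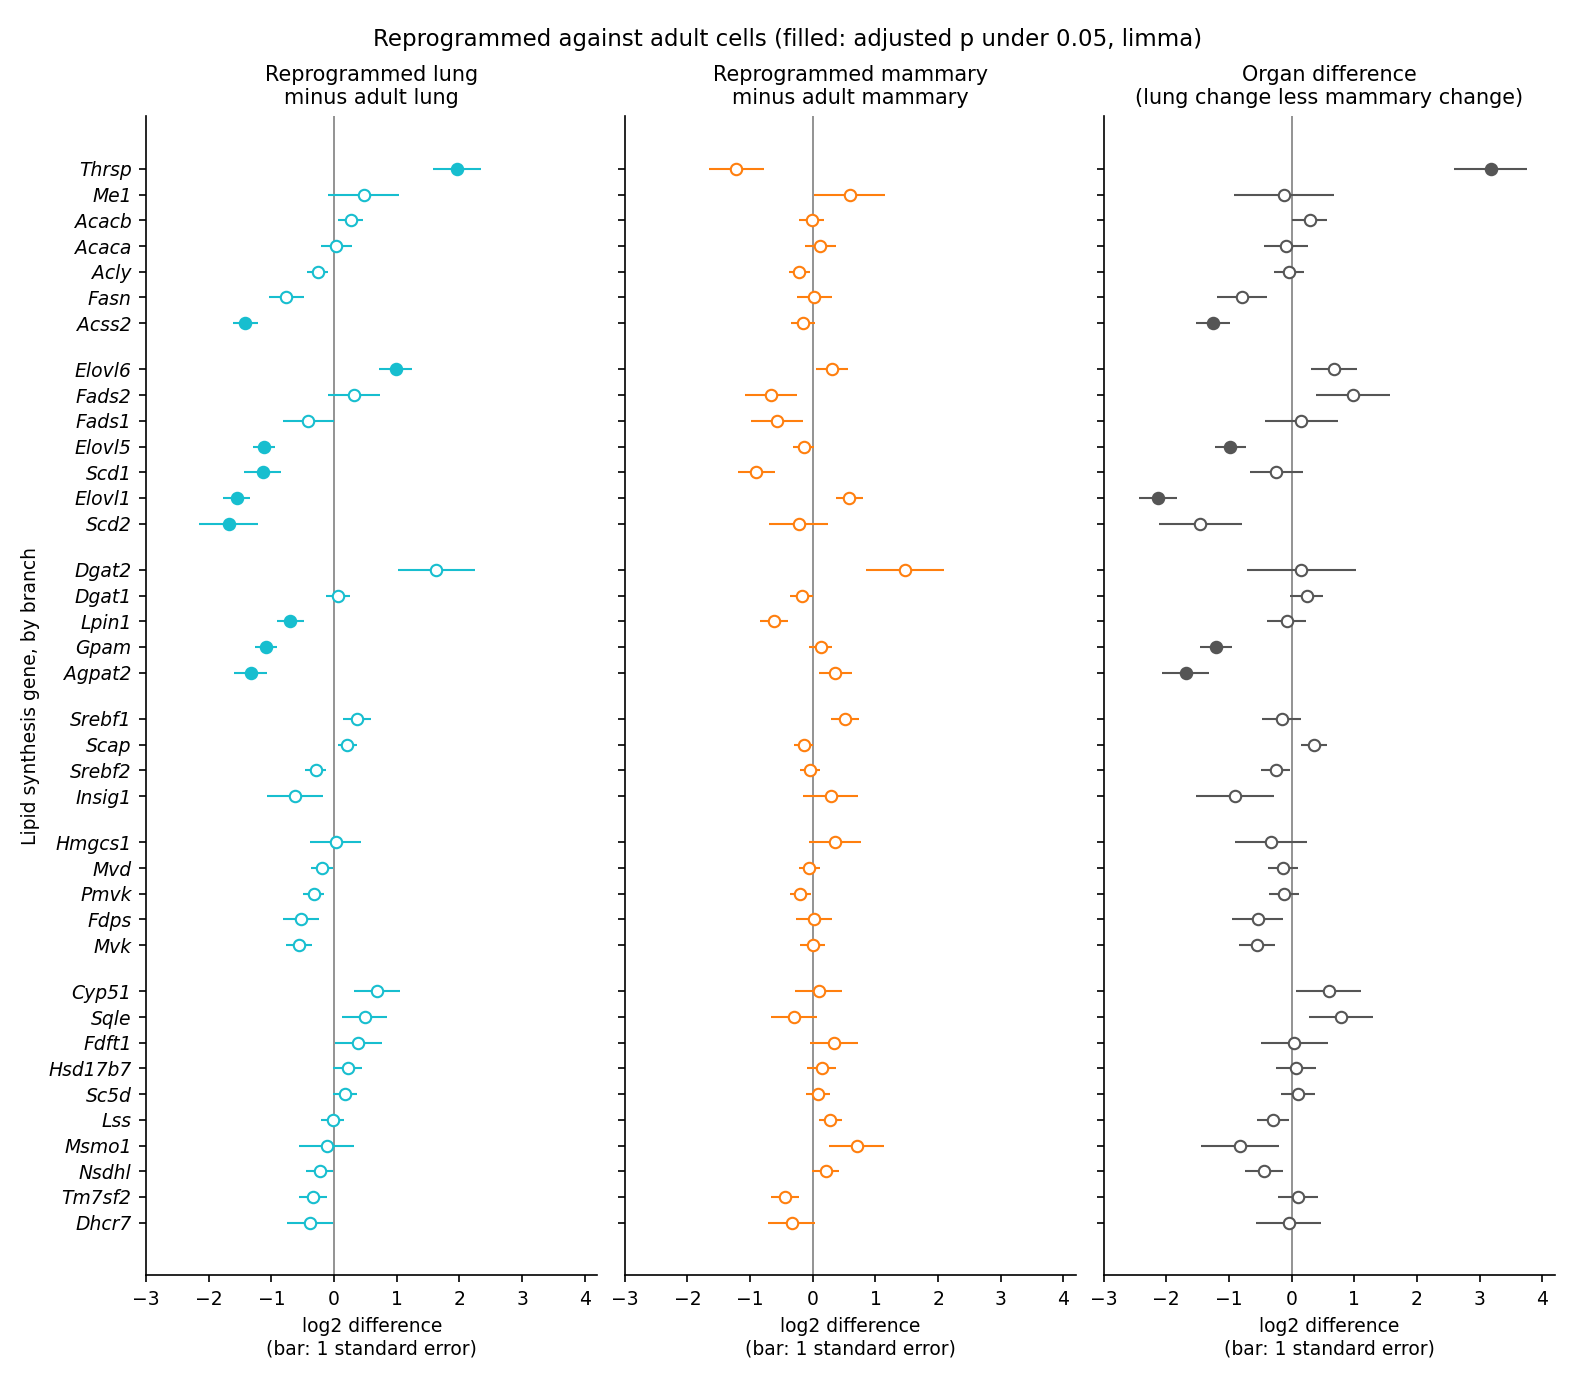
Log2 difference with its standard error for the 38 genes in reprogrammed minus adult lung, in reprogrammed minus adult mammary, and for the lung change less the mammary change (horizontal axes; 3 arrays per group, 2 for Thrsp in reprogrammed mammary). Filled points passed an adjusted p of 0.05: 10 in lung, 0 in mammary and 6 for the difference between organs.

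Across the 4 groups, adult lung held the extremes most often, with the highest mean for 17 of the 38 genes and the lowest for 14. Adult mammary was highest for 6 and lowest for 5, reprogrammed lung for 4 and 9, and reprogrammed mammary for 11 and 10. This order was not counted over all features, so it cannot be read as a trait of these genes. Of all features, 28.5% were called between adult lung and adult mammary, and 0.0286% between reprogrammed lung and adult mammary. Genes with other probes gave the same direction for every called difference between the adult organs: a second probe gave 1.12 for Acss2, 1.40 for Elovl5, 1.09 for Agpat2 and 0.92 for Mvk. The 12 arrays lay on 5 slides, and the adult organs shared only 1 of them (adult lung array 1 and adult mammary array 2). Organ and slide therefore cannot be fully told apart in that comparison. Within this slide, all 12 called genes kept their direction, as they had to, since their groups did not overlap. Within each of the 3 slides that held adult and reprogrammed lung, all 10 genes called there did, and their groups did not overlap either. The directions within slides are therefore no separate check of the calls.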

How the data were processed

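Each of the 12 samples has a deposited scanner file of Agilent Feature Extraction 10.5.1.1, per the file headers (the submitters' processing notes name 10.1). Its processed signal is an intensity, background-subtracted and detrended within the array but not scaled between arrays, per the file headers. The authors' deposited matrix of log2 values served as an alternative, with its normalization method not given in the sources used here. Probes were named by RefSeq accession (24844 of 41174; table of GRCm38.p6). Spots of a probe were averaged without the 91 to 280 marked as outliers per array, so that Thrsp had no value on reprogrammed mammary array 2. The probe with the highest mean stood for its gene. The log2 processed signal was set relative to the 75th percentile of its array (293.8 to 608.5, against negative-control medians of 18 to 23). A feature was tested if well above background on all 3 arrays of at least 1 group.

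The model was limma 3.58.1 (R 4.3.3), with a mean per group over all 12 arrays, eBayes without a trend and two-sided p, adjusted by Benjamini-Hochberg at 0.05 within each comparison. The scripts were tested on simulated data. A fold against a group not well above background was taken, array by array, against the dimmest signal so marked, and is written "at least". The alternative with normexp (offset 50) used the median spot and background signals. The number of arrays limits the precision.

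The genes, the lists and the tests were chosen with earlier results of these data known. Every gene with a probe is named. Values on every array compared are given for the 8 largest called differences between the adult organs and the 4 largest called in each other comparison. They are also given for Srebf1, Srebf2, Insig1, Fasn, Acaca and Hmgcs1. At most 5 called genes of each other list are named, and 3 genes of the list of other cholesterol genes are not reported here. Values given on every array for other genes were chosen after they were seen.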

Additional observations from a re-analysis of the deposited data

Results flagged for a closer look

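For 6 of the 38 genes the difference of reprogrammed from adult cells varied with the organ name (limma interaction term, adjusted p under 0.05). The same term called 12.8% of all features. Only Elovl1 was called under every alternative run. Given is the lung difference less the mammary difference (log2, n = 3 arrays per group, 2 for Thrsp in reprogrammed mammary). The values were 3.18 for Thrsp, -2.14 for Elovl1, -1.69 for Agpat2, -1.25 for Acss2, -1.21 for Gpam and -0.98 for Elovl5. Their limma adjusted p were 0.00879, 0.00217, 0.0166, 0.0159, 0.0133 and 0.0267 in that order.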

How the results depend on the processing

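No gene of the 38 that was called in a comparison changed direction under any of the alternatives run. Of the 12 genes called between the adult organs, 5 were called under every one of 25 alternatives. Of the 10 called between reprogrammed and adult lung 6 were, and of the 6 called for the organ difference 1 of them under 24 alternatives. The count of genes called between the adult organs was 7 with normexp and 5 with slide as a fixed block. Between reprogrammed and adult lung it was 6 with only the groups compared. For the organ difference it was 3 with normexp and 2 with slide as a fixed block. Over all 24503 features, normexp called 2895 higher and 1858 lower between the adult organs, against 3071 and 3908 under the main setting. For the organ difference it called 390 higher and 748 lower, against 1816 and 1321. Calls over all features under the other settings are not set beside these counts, so the counts are not a trait of the 38 genes. Leaving out arrays gave 6 to 15, 6 to 13 and 5 to 8 genes in these 3 comparisons, and 0 to 0 in the other 3. The slide as a random block had a consensus correlation of -0.03. The adult organs shared only 1 of the 5 slides, which limits what a slide block can say of that comparison.

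With the replicate number as a block, 9, 8 and 1 genes were called in these 3 comparisons and 0 in the others. The deviations of 13 same-numbered pairs correlated between -0.53 and 0.33, with 5 over 0.1. Pairs with different numbers ran from -0.43 to 0.64. With 3 arrays per group, these values cannot show whether the numbers pair the arrays. The block therefore says nothing of a weaker effect.

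Some genes outside the 38 reversed, and the cause was not tested. Between reprogrammed and adult lung, Slc27a2 was at -0.12 under normexp, Pgd (main value -0.05) at 0.64 without reprogrammed lung array 1, and Marco at -1.18 without adult mammary array 4 and reprogrammed lung array 1. Marco was at -1.81 for the organ difference without those 2 arrays. Over all omissions of arrays, Pgd ran from -0.55 to 0.64, and Marco from -1.18 to 1.43 and, for the organ difference, from -1.81 to 1.59. Slc27a2 was above background on 1 adult lung array and Btn1a1 on none, which limits their values.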
